A study of Mus musculus with 12 samples.

Results

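The mitochondrial ribosomal protein genes were followed in mouse brown adipose tissue, the heat-producing fat, in controls and in Ebf2 mutants kept at room temperature or in the cold. Members were the rows of the count table whose symbol is Mrpl or Mrps followed by a number and at most the letter a or b. The rule used no measured value and found 76 of the 24197 genes, 48 named for the large subunit and 28 for the small subunit. Every one of the 76 passed the filter on low counts that left 15265 genes for testing, with between 365 and 8119 counts in any library. The study had 4 groups of 3 libraries. Controls at room temperature were Adipoq-Cre- with Ebf2 fl/fl, and mutants at room temperature were Adipoq-Cre+ with Ebf2 fl/fl. The other 2 groups had the same genotypes and spent 1 week at 4C. Per the labels, the mice in every group were 8 to 10 weeks old. Since both genotypes are Ebf2 fl/fl, all 12 libraries carry the floxed Ebf2 alleles. Adipoq-Cre is active in adipocytes, brown and white, and leaves the other cells of the tissue unrecombined. Nothing in the labels says that the 3 replicates come from separate mice, and each p-value speaks only of the variation among these libraries, part of which may be technical.

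The mitochondrial ribosome translates the few messenger RNAs made from mitochondrial DNA, which encode core subunits of the respiratory chain and of ATP synthase. All of its proteins are encoded in the nucleus, made in the cytosol and imported, while its RNAs come from mitochondrial DNA. Brown adipocytes are packed with mitochondria, and cold exposure is known to expand and remodel them. Some symbols do not match the structure: the products of Mrps18a and Mrps30 sit in the large subunit, and that of Mrps36 belongs to the 2-oxoglutarate dehydrogenase complex. The subunit named here is the one in the symbol.

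Library totals ran from 25835650 to 37927038 counts, and levels are given as CPM, counts scaled to a common library total with TMM factors. Ebf2 itself was at 47.4, 64.1 and 32.0 CPM in the control and 65.2, 45.7 and 38.3 CPM in the mutant libraries at room temperature, so the label was not borne out there by the count over the whole gene. In the cold it was at 52.3, 42.2 and 41.6 CPM in controls and 28.7, 21.6 and 27.0 CPM in mutants (edgeR adjusted p = 0.153). Mutant and control therefore mean the libraries labelled so throughout. The 8 brown adipocyte markers were present in every library, and Ucp1, the uncoupling protein, ranged from 718 to 12200 CPM. The third mutant cold library stood apart, with 254 CPM of 6 epithelial markers against 2.65 to 24.4 CPM in the other 11, none of the 6 at 0 in it, and Ucp1 at 5870 CPM against 11000 and 11700 CPM in the other 2 of its group. Transcripts of 16 skeletal muscle markers took 2.91%, 2.08%, 2.03% and 0.972% of the counts in control room temperature libraries 1 and 3, mutant room temperature library 3 and control cold library 3, and between 0.00965% and 0.644% in the other 8. In bulk tissue, fewer cells of a type and less RNA per cell cannot be told apart.

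Per kilobase of exon, the members spanned a range from 6.13 to 230.0 CPM. The 4 highest were Mrpl42 at 230.0, Mrpl34 at 201.1, Mrps21 at 195.8 and Mrpl30 at 162.5 CPM per kilobase, and the lowest were Mrpl19 at 6.13 and Mrps17 at 6.95 CPM per kilobase. The summed exons of the 4 highest were 492 to 973 bases long, against 5000 bases for Mrpl19 and 6003 for Mrps17, so the per-kilobase level is an underestimate where long alternative exons are rarely used. In the GENCODE M21 annotation, exons of 24 members overlap another gene, and for 18 of them that gene has a row in the table. These are Mrpl9 (Oaz3), Mrpl13 (Mtbp), Mrpl18 (Tcp1), Mrpl19 (Gcfc2), Mrpl21 (Ighmbp2), Mrpl24 (Rrnad1), Mrpl27 (Eme1), Mrpl36 (Ndufs6), Mrpl43 (Peo1), Mrpl47 (Actl6a and Ndufb5), Mrpl48 (Rab6a), Mrpl49 (Syvn1), Mrpl51 (Mir3098), Mrps6 (Slc5a3), Mrps7 (Gga3 and Mif4gd), Mrps25 (Nr2c2), Mrps26 (4930473A02Rik) and Mrps27 (6430562O15Rik). Whether reads were counted by strand is not given in the sources used here, so reads in such overlaps cannot be told apart. Pseudogenes named after Mrpl23, Mrpl48 and Mrps36 are in the annotation and have no row in the table.

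Promoters were compared because many members moved together. RefSeq (GRCm38.p6) gave 250 bases before to 50 bases after the start for 67 of the 76 members. They were searched on both strands for 4 short motifs of factors known to act on nuclear genes for mitochondrial proteins: GCGCATGCG for NRF1, CCGGAAG for GABPA and other ETS factors, AAGATGGCG for YY1 and AAGGTCA for ERR. The ETS motif ends in the letters AAG with which the YY1 and ERR motifs begin, so neighbouring matches can overlap, and the NRF1 motif can match both strands at 1 site. The ETS motif was in 24 of the 67 promoters (35.8%, against 17.8% of the promoters of 11233 tested genes and 9.93% of all 27025 promoters of the same length). YY1 letters were in 8 (11.9%, against 3.13% and 1.64%), NRF1 letters in 7 (10.4%, against 3.71% and 1.95%) and ERR letters in 4 (5.97%, against 4.24% and 5.38%), and 36 of the 67 held at least 1 of the 4. A match describes letters only. ETS letters were in 7 of the 21 members with an entry that rose in cold mutants and in 17 of the other 46. The windows are therefore examples, and a tie of the letters to the cold change was not tested. Shown first are the bases directly upstream of the starts of 4 members whose RNA was higher in the cold in both genotypes, with ETS letters in capitals, and of Mrpl30, whose cold change did not pass the test in either. Mrps27 is at chr13:99344711-99344785 (+ strand), Mrps22 at chr9:98601680-98601754 (- strand), Mrpl43 at chr19:45006443-45006517 (- strand), Mrps2 at chr2:28467991-28468065 (+ strand) and Mrpl30 at chr1:37890412-37890476 (+ strand).
Mrps27: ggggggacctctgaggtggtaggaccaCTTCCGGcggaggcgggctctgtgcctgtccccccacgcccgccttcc
Mrps22: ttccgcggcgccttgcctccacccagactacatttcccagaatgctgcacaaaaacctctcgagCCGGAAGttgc
Mrpl43: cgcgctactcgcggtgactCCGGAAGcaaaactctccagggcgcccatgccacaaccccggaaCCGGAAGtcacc
Mrps2: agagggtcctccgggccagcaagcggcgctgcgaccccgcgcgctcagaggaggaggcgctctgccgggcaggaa
Mrpl30: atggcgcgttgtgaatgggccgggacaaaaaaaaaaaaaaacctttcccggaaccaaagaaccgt

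The YY1 letters lie just past the start in Mrps27 (chr13:99344790-99344819, + strand) and Mrpl37 (chr4:107066821-107066850, - strand) and in Mrps18a (chr17:46111005-46111034, + strand). They are shown in capitals within 30 bases for these 3 of the 8 members with YY1 letters, all 3 of which rose in cold mutants. Mrpl36 also holds the letters, on the opposite strand, but did not pass in cold mutants and is not shown.
Mrps27: ggtgcgctccAAGATGGCGgctcccatggt
Mrpl37: tgcacgggcaAAGATGGCGgcgtccaggta
Mrps18a: ggtgcgttccAAGATGGCGgccctcagggc

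Summed over the 76 genes, the mitochondrial ribosomal protein transcripts were at 4905, 4788 and 5336 CPM in controls at room temperature and at 4447, 3901 and 3615 CPM in mutants there. In the cold they were at 6792, 6287 and 6112 CPM in controls and at 6497, 6900 and 3902 CPM in mutants. Room temperature mutants were below room temperature controls without overlap, and cold controls were above them without overlap on this scale. Scaled to raw library totals the third control cold library, at 5679 CPM, lay below the third room temperature control at 5934 CPM, so those groups then overlapped. The cold mutants split into 2 high libraries and the third library at the level of the room temperature mutants. Group means were 5010 ± 288.6, 3988 ± 422.7, 6397 ± 353.1 and 5766 ± 1627 CPM (SD, n = 3) in the same order. As a share of all counts the members took between 0.346% (mutant room temperature library 3) and 0.671% (control cold library 1). The ratio of large to small subunit sums stayed between 1.89 and 2.06 in all 12 libraries. Of the 76 members, 75, 74 and 73 were above their own mean over the 12 libraries in the 3 cold controls, and 72 and 76 in the first 2 cold mutants. The count was 2 in the third cold mutant, 13, 3 and 0 in room temperature mutants and 25, 15 and 37 in room temperature controls.

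**Figure D1:**
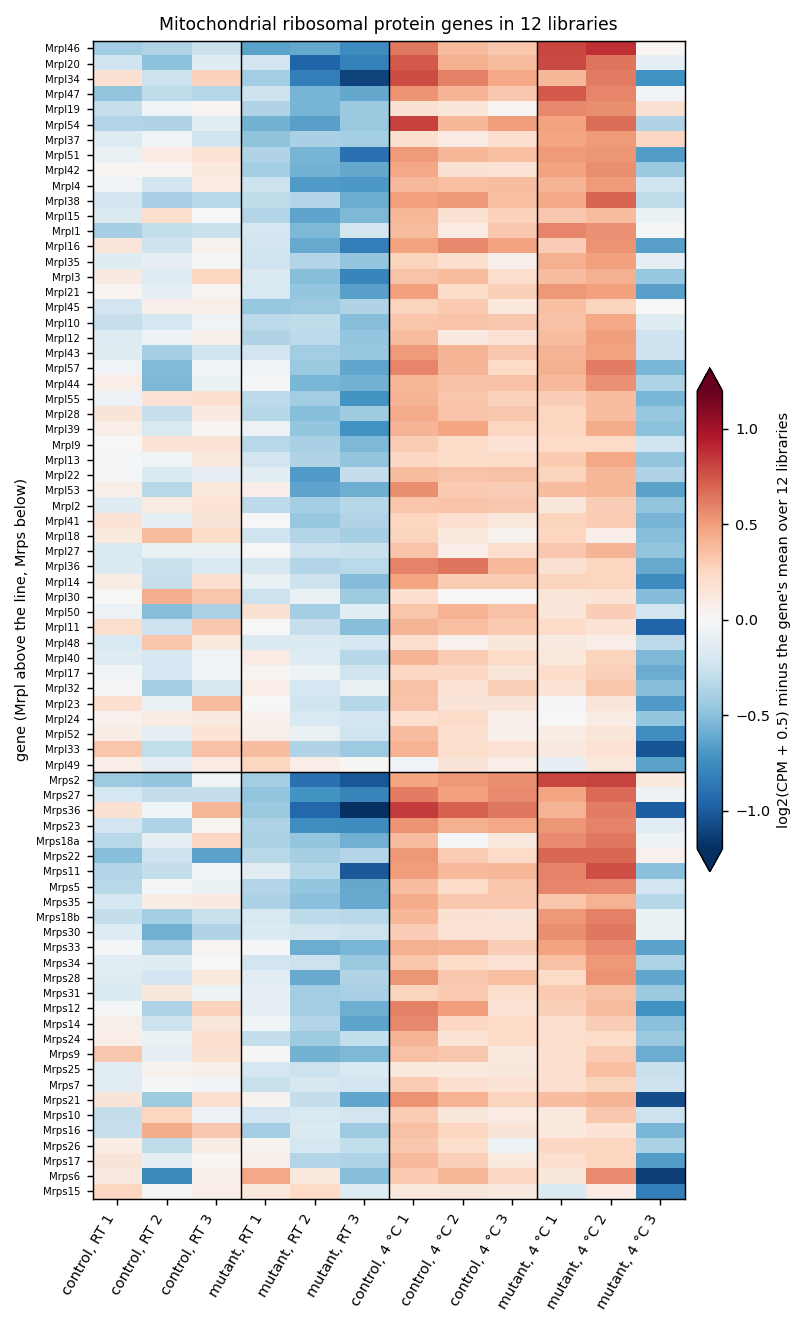
Each row is 1 of the 76 genes and each column 1 of the 12 libraries (RT is room temperature), and the colour is log2(CPM + 0.5) minus the gene's mean over the 12 libraries, with red above and blue below. Columns of cold libraries are red almost throughout except the third mutant library, and the room temperature mutants are the bluest of the room temperature columns.

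In the heat map the change was shared by nearly all rows in both subunits, with few rows going their own way, among them Mrps15, Mrpl49 and Mrps6. Within a group the rows also moved as a block, since the first room temperature mutant was above the other 2 in most rows.

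At room temperature most members were lower in mutants than in controls, but the difference passed the test for 1 gene. The median log2 fold change of the 76 was -0.29, against -0.04 over all tested genes, and 66 of the 76 were below 0. Split by summed exon length, the 38 shorter members had a median of -0.33, against -0.15 for all tested genes of such length. The 38 longer members had -0.27, against -0.02 for all tested genes of their length. By edgeR's quasi-likelihood test at an adjusted p below 0.05, 1 member was lower and 0 were higher, where 2.32% of all tested genes were called lower and 3.92% higher. At an unadjusted p below 0.05 the count was 23, all lower. The 3 mutant libraries were all below the 3 controls for 33 members (11.9% of all tested genes did so). DESeq2 called 5 members lower, where it called 4.44% of all genes lower, and limma-voom with quality weights called 27 lower, where it called 7.83%. Both called 0 members higher.

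Mrpl9, a large subunit protein with a bacterial homologue, was at 110, 124 and 124 CPM in room temperature controls and at 87.7, 84.1 and 75.6 CPM in room temperature mutants. It fell by 0.53 ± 0.14 on the log2 scale (SE, edgeR adjusted p = 0.0412), with no overlap between the groups. Its call was kept in 7 of 21 alternative analyses, and its adjusted p reached 0.176 without mutant room temperature library 3. The largest fitted difference belonged to Mrps36, at 108, 92.3 and 126 CPM in controls and 70.2, 49.4 and 37.6 CPM in mutants. Its log2 fold change of -1.06 ± 0.35 (SE) did not pass (edgeR adjusted p = 0.105), although the groups did not overlap. Mrpl34 had values of 128, 93.5 and 136 CPM in controls and 84.2, 63.1 and 51.8 CPM in mutants, a log2 fold change of -0.84 ± 0.30 (SE, edgeR adjusted p = 0.131). For all 3 genes the lowest value was in mutant library 3. At the other end were Mrps6 at 0.23 ± 0.39 and Mrpl50, a large subunit protein particular to mitochondria, at 0.21 ± 0.18 (log2, SE), both with overlapping groups.

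This comparison rested on a few libraries. Without the third mutant cold library, which is in neither group but adds to the estimate of spread, 18 members were called lower, Mrpl9 among them, and the share over all genes rose to 4.11%. Without the 4 muscle-rich libraries, which leaves 1 control, 0 were called (3 at an unadjusted p below 0.05), 0.602% of all genes were called lower, and the median was -0.14. The 8 brown adipocyte markers summed to 6070, 3960 and 3810 CPM in mutants and 7020, 11700 and 11400 CPM in controls, none of the 8 at 0. Of these, 6 had fitted changes below 0, and by edgeR Ucp1 was called lower (-1.77 ± 0.39, SE, adjusted p = 0.0199) and Elovl3, a fatty acid elongase, higher (1.61 ± 0.265, SE, adjusted p = 0.00452). The 6 general adipocyte markers summed to 20100, 14600 and 16100 CPM in mutants and 13800, 9530 and 11100 CPM in controls, with 2 of 6, Plin1 and Lipe, called higher. The sum of 6 lens markers was 0.721 to 1.25 CPM in the 3 mutants against 121 to 540 CPM in the controls, with 1 or 2 of the 6 at 0 in each mutant library, and the part of these 3 marker lists in the result was not tested.

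In controls, 1 week of cold raised 10 members and lowered 0. The 10 were Mrps27, Mrps22, Mrpl47, Mrpl46, Mrpl36, Mrps2, Mrpl54, Mrpl43, Mrpl50 and Mrpl38, with log2 fold changes of 0.68 to 0.87. By the same edgeR test 4.31% of all tested genes were called higher and 2.31% lower. The median over the 76 was 0.36, against -0.01 over all tested genes, and 74 of 76 were above 0. The shorter members had a median of 0.36, against 0.16 for all tested genes of such length, and the longer ones 0.33, against -0.01. At an unadjusted p below 0.05, 25 members were higher and 0 lower. For 55 members the 3 cold libraries were all above the 3 at room temperature, as for 18.9% of all tested genes.

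Mrps27, a small subunit protein of the pentatricopeptide repeat family, was at 52.2, 49.5 and 49.7 CPM in room temperature controls and at 93.1, 85.5 and 90.1 CPM in cold controls. It rose by 0.83 ± 0.17 on the log2 scale (SE, edgeR adjusted p = 0.0142), and the 2 groups were far apart. Mrps22, a small subunit protein particular to mitochondria, went from 21.3, 25.8 and 19.4 CPM to 44.2, 38.0 and 36.1 CPM. Its log2 fold change was 0.83 ± 0.18 (SE, edgeR adjusted p = 0.0178), again with no overlap. Mrps2, which has a bacterial homologue, had 50.7, 49.6 and 66.5 CPM at room temperature and 95.9, 98.8 and 102 CPM in the cold (0.83 ± 0.21, SE, edgeR adjusted p = 0.0346). Both Mrps27 and Mrps22 have ETS letters in the window printed above, and the Mrps2 window has none of the 4 motifs.

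The largest fitted rise in controls was that of Mrpl54 (31.9, 31.7 and 37.2 CPM against 72.7, 54.1 and 58.0 CPM, log2 0.87 ± 0.22, SE, edgeR adjusted p = 0.0369). With the replicate number as a block its edgeR adjusted p was 0.0519. Mrpl36, among the last proteins to join the large subunit, rose from 38.5, 35.8 and 38.0 CPM to 65.6, 67.8 and 56.7 CPM (0.76 ± 0.19, SE, edgeR adjusted p = 0.0338). Groups did not overlap for any of the 10. Leaving out 1 library gave counts from 0 to 21. None was called without control room temperature library 3 or any 1 of the 3 control cold libraries, where 1.44% to 1.78% of all genes were called higher. Between 2 and 5 were called without control room temperature library 1 or 2, mutant room temperature library 2 or 3, or mutant cold library 1. There 2.81% to 3.47% of all genes were called higher. The largest count, 21 with all 10 among them, came without the third mutant cold library, where 7.27% of all genes were called higher. With the 4 muscle-rich libraries left out, only 1 control at room temperature remained, and 5 of 15939 genes were called higher in all. None of them was a member, 14 members passed an unadjusted p below 0.05, all higher, and the median was 0.54. Brown markers summed to 18700 to 20800 CPM in the 3 control cold libraries, above their room temperature range given before. Ucp1 alone was at 11500 to 12200 CPM of these sums. Of the 8 markers, 5 had fitted changes above 0 and 3 below, and edgeR called 2 higher and 0 lower. Of 5 endothelial markers 1 was called higher and 0 lower, and of 6 general adipocyte markers 0 higher and 1 lower. The part of these markers in the result was not tested.

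In mutants, cold raised 27 of the 76 members and lowered 0, where 10.0% of all tested genes were called higher and 7.42% lower. The median was 0.53, against -0.01 over all tested genes, 71 members were above 0, and 46 were higher at an unadjusted p below 0.05, 0 lower. The shorter members had a median of 0.49, against 0.06 for all tested genes of such length, and the longer ones 0.61, against -0.01. For 24 members every cold library was above every room temperature library, against 16.7% of all tested genes. By smallest p the first 12 were Mrpl37, Mrpl19, Mrpl46, Mrps2, Mrps27, Mrps23, Mrpl47, Mrpl45, Mrps22, Mrpl15, Mrpl20 and Mrps18a. The other 15 were Mrps5, Mrpl35, Mrpl1, Mrpl4, Mrpl10, Mrps18b, Mrpl54, Mrps35, Mrpl9, Mrpl38, Mrpl42, Mrpl43, Mrps30, Mrpl12 and Mrpl34. The room temperature mutants enter both this comparison and that with controls at room temperature, so the 2 are not independent.

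Mrpl37, a large subunit protein particular to mitochondria and related to that of Mrps30, was at 73.2, 77.9 and 76.8 CPM in room temperature mutants and 142, 146 and 122 CPM in cold mutants. It rose by 0.85 ± 0.11 on the log2 scale (SE, edgeR adjusted p = 0.000483), the smallest p among the members. Mrpl19, with a bacterial homologue at the interface of the subunits, rose from 23.1, 20.1 and 21.8 CPM to 44.6, 44.0 and 33.9 CPM (0.91 ± 0.13, SE, edgeR adjusted p = 0.000927). For both genes the third cold mutant was the lowest of the 3 and still above all room temperature libraries, controls included. In the GENCODE M21 annotation, 1962 of the 5000 exon bases of Mrpl19 overlap Gcfc2 on the opposite strand. Reads there cannot be told apart without the strand setting.

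The highest fitted changes were those of Mrps2 (51.3, 36.8 and 33.7 CPM against 120, 121 and 74.7 CPM, log2 1.37 ± 0.21, SE, edgeR adjusted p = 0.00114) and Mrpl46 (24.7, 25.1 and 22.8 CPM against 68.0, 71.5 and 39.4 CPM, 1.30 ± 0.19, SE, edgeR adjusted p = 0.000937). Mrpl20, which in bacteria joins the large subunit early, rose by 1.13 ± 0.24 and Mrps27 by 1.06 ± 0.17 (log2, SE, edgeR adjusted p = 0.00777 and 0.00137). Calls for Mrps2, Mrpl37, Mrpl19, Mrpl46, Mrpl45 and Mrps27 were kept in all 21 alternative analyses run. Mrpl45, which ties the exit of the ribosome to the inner membrane, was at 45.0, 45.6 and 48.2 CPM at room temperature and 79.7, 74.6 and 62.0 CPM in the cold (0.64 ± 0.13, SE, edgeR adjusted p = 0.00486). For these 6 genes the cold and room temperature mutants did not overlap.

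**Figure D2:**
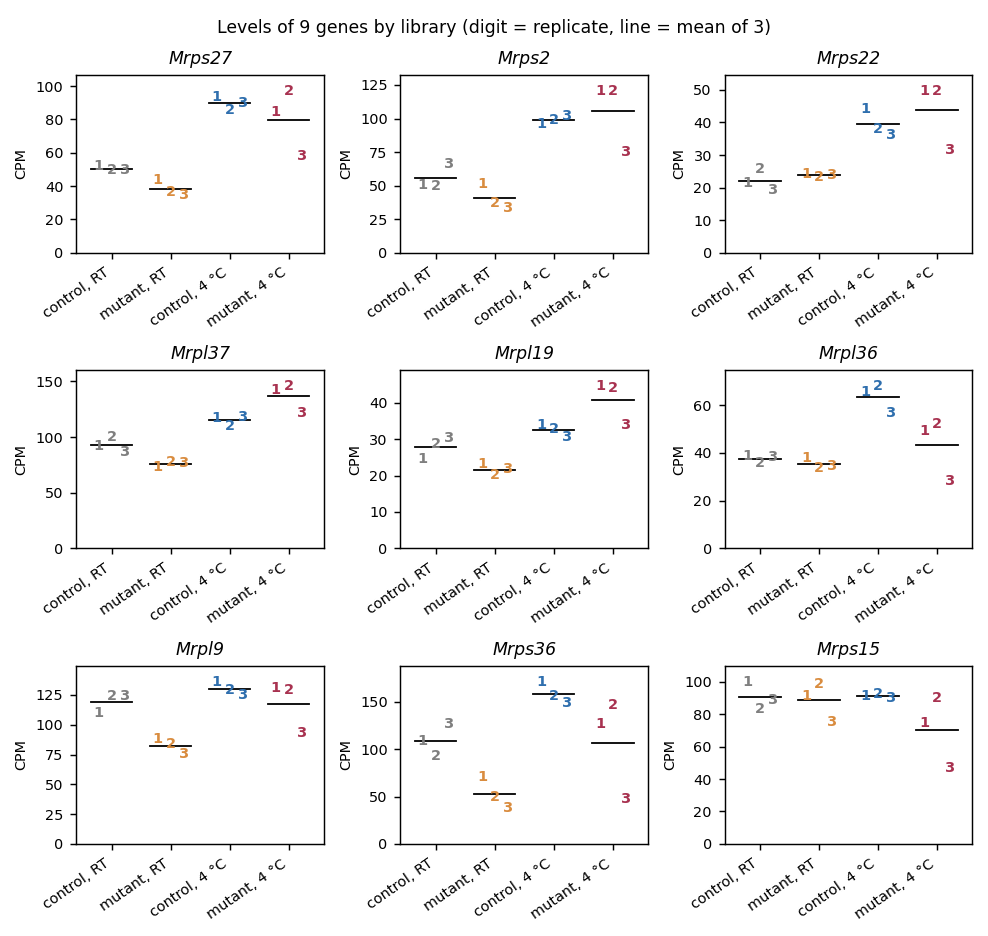
Levels in CPM of 9 genes on linear axes from 0, where each digit is 1 library (its replicate number) and the line is the mean of 3. The third mutant cold library is the lowest of its group in all 9 panels. It stays above the room temperature mutants for Mrps27, Mrps2, Mrps22, Mrpl37, Mrpl19 and Mrpl9.

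The plot of levels by library shows how much of the spread in cold mutants came from that library. Without it, 58 of the 76 members were called higher in the cold in mutants, including all 27, where 13.0% of all genes were, and the median was 0.75. Members not called even then included Mrps15, Mrpl49, Mrpl33, Mrps6, Mrpl30, Mrpl11 and Mrpl50. Leaving out 1 other library at a time, the lowest count was 12, without mutant cold library 1 or 2, and 14 remained called without mutant room temperature library 2 or 3. In these fits 5.89% to 6.51% of all genes were called higher. Without the 4 muscle-rich libraries 6 were called, where 4.72% of all genes were called higher, and without those and the third mutant cold library 54 were, where 11.5% were.

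Markers of several cell types moved in the same comparison. From room temperature to cold in mutants, the lens markers went from 0.721 to 1.25 CPM to 81.0 to 133 CPM, with 5 of 6 called higher by edgeR. The brown adipocyte markers went from 3810 to 6070 CPM to 9940 to 20200 CPM, with 3 of 8 called higher, Ucp1, Cox7a1 and Elovl3. Of 6 general adipocyte markers 3 were called lower, Adipoq, Plin1 and Lipe, and of 5 endothelial markers 3 were called higher. None of these markers was at 0 in a cold mutant. The part of these lists in the members' rise was not tested.

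The 2 cold comparisons share no library. They had 8 called members in common, 80.0% of the 10 in controls and 29.6% of the 27 in mutants, and over all tested genes the shared calls were 444, or 67.5% of 658 and 29.0% of 1531. Mrpl36 and Mrpl50 were called in controls and not in mutants. In mutants Mrpl36 went from 37.7, 33.7 and 34.5 CPM to 49.1, 51.9 and 28.3 CPM, with the first 2 cold libraries above room temperature and the third below it (log2 0.29 ± 0.19, SE, edgeR adjusted p = 0.331). Across the 76 genes, which share libraries and scaling within each genotype, the cold changes in the 2 genotypes had a Pearson r of 0.63. The change was above 0 in both genotypes for 69 members, and 54 had the larger value in mutants.

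**Figure D3:**
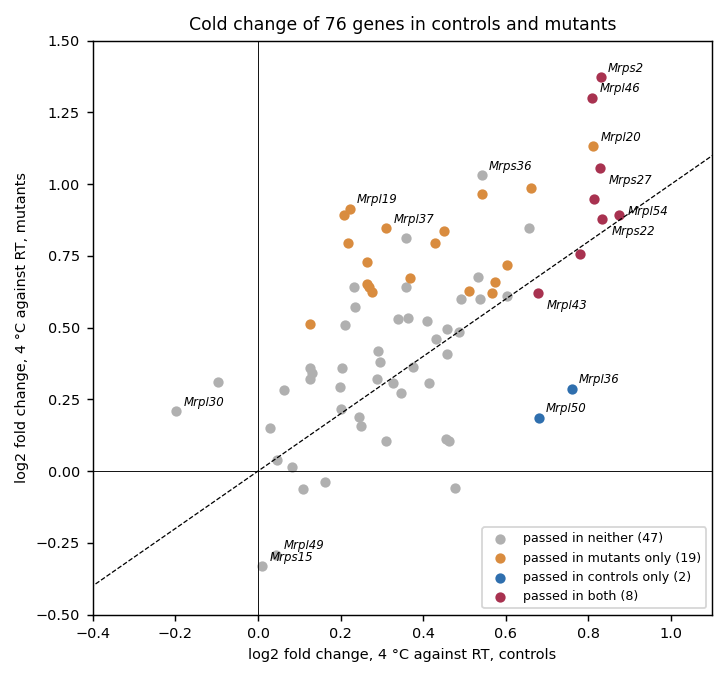
Each point is 1 of the 76 genes, with its log2 fold change at 4 °C against room temperature in controls on the x axis and in mutants on the y axis, coloured by the comparisons in which it passed edgeR's test, and the dashed line marks equal change. Most points lie above both zero lines, and 54 of the 76 lie above the dashed line.

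Points above the dashed line in that plot do not show a difference between genotypes by themselves. By edgeR's interaction term, 0 members were called, where 0.478% of all tested genes were, and 4 passed an unadjusted p below 0.05, all with the larger cold change in mutants. DESeq2 called 2, where it called 3.31% of all genes, and limma-voom with quality weights 13, where it called 7.34%. Mrpl19 had the largest term, 0.69 ± 0.19 (log2, SE, edgeR adjusted p = 0.158), followed by Mrps18a at 0.68 ± 0.28 (adjusted p = 0.345). Mrps6 at -0.53 ± 0.56 and Mrpl50 at -0.49 ± 0.25 were lowest. The median term was 0.12, 0.34 without the third mutant cold library (0 called, 27 at an unadjusted p below 0.05), and -0.03 without mutant cold library 2 and also without the 4 muscle-rich libraries.

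In the cold, mutants and controls were not separated by the test for any member. Mutants were below controls for 63 of 76 by the fitted change, with a median of -0.16 against -0.01 over all tested genes. The shorter members had a median of -0.25, and all tested genes of such length were nearly as low, at -0.21. The longer members had -0.15, against 0.001 for all tested genes of their length. By edgeR 0 members were called, where 1.12% of all tested genes were, and 3 passed an unadjusted p below 0.05 (2 higher, 1 lower). DESeq2 called 0 members, where it called 4.65% of all genes. Limma-voom with quality weights called 2 members higher in mutants and 0 lower, where it called 7.33% of all genes. In that fit the median over the members was -0.0006, with 38 above 0 and 38 below. The lowest fitted changes were those of Mrps36 at -0.57 ± 0.34 and Mrpl36 at -0.56 ± 0.19 (log2, SE, edgeR adjusted p = 0.461 and 0.188), and the highest were those of Mrpl19 at 0.33 ± 0.13 and Mrps18a at 0.25 ± 0.20. For Mrpl19 the cold controls were at 33.8, 32.9 and 30.6 CPM, just below the lowest of the 3 cold mutants. Without the third mutant cold library the median turned to 0.04, and 10 members were higher and 1 lower at an unadjusted p below 0.05, with 0 called.

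In the third mutant cold library all 76 members were below the mean of the other 2 cold mutants. The median difference was -0.77 on the log2 scale, with Mrps36 lowest at -1.50 and Mrpl37 nearest to the others at -0.24. The 38 members with the shorter exons had a median of -0.83 and the 38 longer ones -0.69. Among all tested genes, those as short as the shorter members had a median of -0.46 in the same library and those as long as the longer members 0.05. Respiratory chain and ATP synthase genes had a median of -1.25 and cytosolic ribosomal protein genes -0.59 there. The library also held the epithelial markers, Krt8 at 79.3 CPM and Epcam at 18.9 CPM, and less Ucp1, and the part of these in the members' low values was not tested.

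**Figure D4:**
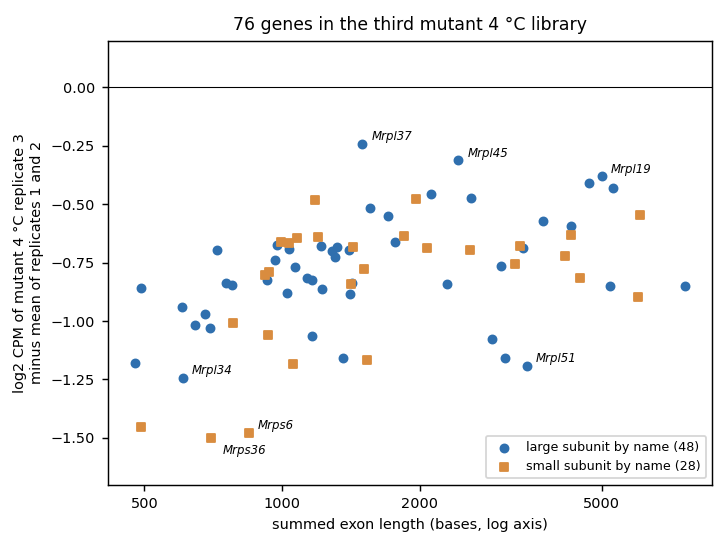
Each point is 1 of the 76 genes, with its summed exon length in bases on a log x axis and, on the y axis, the log2 CPM in the third mutant cold library minus the mean of the other 2. All points are below 0, between -1.50 and -0.24, and many of the lowest belong to short genes.

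Over the 76 genes, which all come from these 3 libraries, the difference in the plot against length had a Pearson r of 0.43 with log10 length. Mrps36, Mrps6, Mrps21 and Mrpl34, with the 4 lowest values, have summed exons of 701, 846, 492 and 607 bases, while Mrpl51, at -1.19, has 3427.

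By name, 7 of the 48 large subunit members rose in the cold in controls and 18 in mutants, and 3 and 9 of the 28 small subunit members did. Of the 45 members with a bacterial homologue, 3 were called higher in controls and 13 in mutants, and of the 30 proteins particular to mitochondria 7 and 14. Over all tested genes, 4.31% were called higher in controls and 10.0% in mutants. The medians of these 2 classes were 0.31 and 0.42 in controls and 0.41 and 0.62 in mutants. Mrps18a and Mrps18b are counted among the 30, although their sequences are related to bacterial S18. No test set these classes against each other.

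Members with well-known roles moved to different degrees. Mrpl12, of the stalk that recruits translation factors, was at 159, 164 and 148 CPM in room temperature mutants and 264, 290 and 172 CPM in cold mutants, and it rose by 0.62 ± 0.18 (log2, SE, edgeR adjusted p = 0.0300). Mrpl10, at the base of the same stalk, rose by 0.63 ± 0.15 in mutants (SE, edgeR adjusted p = 0.0140). Mrpl11, which also sits at the stalk base, changed by 0.16 ± 0.27 with overlapping groups. In controls none of the 3 passed, with changes of 0.28, 0.51 and 0.25.

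Mrps18a and Mrps18b, paralogs of bacterial S18 placed in different subunits, rose by 0.89 ± 0.20 and 0.66 ± 0.16 in cold mutants (log2, SE, edgeR adjusted p = 0.00980 and 0.0163). Mrps18a went from 44.5, 42.0 and 38.7 CPM to 86.3, 90.5 and 55.5 CPM without overlap. Mrps30 rose by 0.62 ± 0.17 (edgeR adjusted p = 0.0282). Mrpl44, a protein of the RNase III family, changed by 0.60 ± 0.24 in mutants and 0.54 ± 0.24 in controls, and Mrps12, of the decoding centre, by 0.41 ± 0.27 and 0.46 ± 0.27, and neither passed. Mrps7, which in bacteria organises the head of the small subunit, changed by 0.32 ± 0.13 and 0.29 ± 0.13 and did not pass either. Mrps36, which is no ribosomal subunit, was at 171, 156 and 148 CPM in cold controls and 127, 146 and 47.9 CPM in cold mutants. The third of these mutant libraries lay within the range of the room temperature mutants.

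A few members had changes near or below 0 in at least 1 genotype. Mrps15, a small subunit protein that binds the ribosomal RNA, was at 100, 83.2 and 88.7 CPM in room temperature controls and 91.3, 92.3 and 90.1 CPM in cold controls. In mutants it was at 91.4, 98.7 and 75.4 CPM and then 74.3, 89.8 and 47.0 CPM. The log2 changes were 0.01 ± 0.20 and -0.33 ± 0.20 (SE), with overlapping groups in both genotypes. Mrpl49 changed by 0.04 ± 0.17 and -0.29 ± 0.17, and Mrpl33 by 0.11 ± 0.31 and -0.06 ± 0.31. Mrpl30, one of the 4 highest members per kilobase, was at 155, 210 and 196 CPM in room temperature controls and 179, 156 and 155 CPM in cold controls (-0.20 ± 0.19, SE), and its change in mutants was 0.21 ± 0.19. Mrpl18, of the central protuberance, had changes of -0.10 ± 0.17 in controls and 0.31 ± 0.17 in mutants. None of these passed the test, but without the third mutant cold library Mrpl18 was called higher in cold mutants (0.51, edgeR adjusted p = 0.0111).

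Other genes of mitochondrial translation were read from lists. For the counts below, 4.31% of all tested genes were called higher in cold controls and 10.0% in cold mutants. At room temperature 2.32% were called lower in mutants. Proteins of the same ribosome with other names numbered 7, and 1 rose in cold controls and 2 in cold mutants: Ptcd3, a small subunit pentatricopeptide repeat protein, rose by 0.59 ± 0.13 and 1.06 ± 0.13, and Ict1, a peptidyl-tRNA hydrolase of the large subunit, by 0.66 ± 0.20 in mutants (log2, SE, edgeR adjusted p = 0.0212, 0.000356 and 0.0408). Translation factors had 1 of 16 called higher in cold controls and 10 of 16 in cold mutants, with medians of 0.34 and 0.66. The elongation factor gene Gfm1 rose by 1.35 ± 0.28 in mutants and Tufm, the elongation factor Tu of mitochondria, by 0.89 ± 0.25 (edgeR adjusted p = 0.00676 and 0.0284). Mrrf, the recycling factor, was the 1 called in controls (0.48 ± 0.12, edgeR adjusted p = 0.0342). At room temperature 2 of the 16 were lower in mutants, Taco1, a translational activator, at -0.58 ± 0.13 and Lrpprc, which stabilises mitochondrial messenger RNA, at -0.64 ± 0.16 (edgeR adjusted p = 0.0182 and 0.0324).

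Of 24 genes of assembly and ribosomal RNA modification, 2 were higher in cold controls and 9 in cold mutants. Nsun4 and Mterf4, whose products work as a complex on the ribosomal RNA, were the 2 in controls, at 0.73 ± 0.15 and 0.70 ± 0.18 (log2, SE, edgeR adjusted p = 0.0165 and 0.0386), and both were also among the 9. Of the 17 mitochondrial aminoacyl-tRNA synthetases 4 rose in cold controls and 8 in cold mutants. Cars2 rose from 28.0 ± 4.07 to 80.2 ± 4.16 CPM in controls (SD, n = 3), a log2 change of 1.52 ± 0.21 (SE, edgeR adjusted p = 0.00231). Of the 8 genes for maintaining and transcribing mitochondrial DNA, 1 was higher in cold controls and 5 in cold mutants, among them the polymerase gene Polrmt in both (0.53 ± 0.11 and 0.99 ± 0.11, edgeR adjusted p = 0.0190 and 0.000252).

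**Figure D5:**
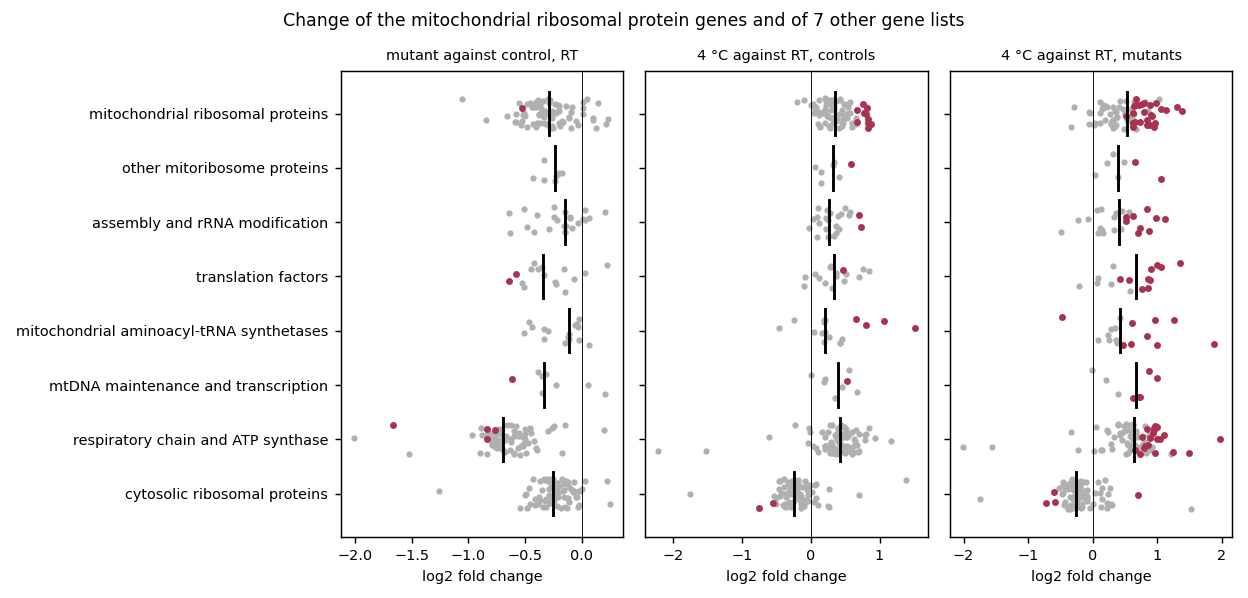
Each point is 1 gene, with its log2 fold change on the x axis for the 76 genes and 7 other lists, red where it passed edgeR's test, and the black line is the median of the list (point heights within a list are random). In the cold panels the lists of the mitochondrial ribosome, its helpers and the respiratory chain have medians above 0, and the cytosolic ribosomal proteins have theirs below 0.

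Ribosomal proteins of the cytosol, shown last in the plot of lists, had medians below 0 in the cold. Of 85 tested, 0 rose and 2 fell in controls (21 at an unadjusted p below 0.05 in either direction) and 1 rose and 3 fell in mutants, with medians of -0.24 and -0.26. Between genotypes at room temperature their median was -0.25, against -0.29 for the members, with 0 cytosolic genes called and 7 at an unadjusted p below 0.05. Respiratory chain and ATP synthase genes had a median of -0.69 between genotypes at room temperature, with 81 of 82 below 0 and 4 called lower. They had medians of 0.43 in cold controls, where 0 of 82 were called and 10 passed an unadjusted p below 0.05, and 0.64 in cold mutants, where 20 rose. Of 9 regulators of such genes, 0 were called by edgeR in cold controls and 4 passed an unadjusted p below 0.05. In cold mutants Esrra, the nuclear receptor ERR alpha, Gabpa, an ETS factor, and Ppargc1b, a coactivator, rose by 1.21 ± 0.15, 0.73 ± 0.16 and 0.97 ± 0.22 (log2, SE, edgeR adjusted p = 0.000437, 0.00811 and 0.0102), and Pprc1, another coactivator, fell by 0.63 ± 0.15 (edgeR adjusted p = 0.0148). At room temperature Esrra was lower in mutants, at -0.69 ± 0.15 (edgeR adjusted p = 0.0187).

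The motif letters were counted among members that rose and the others. Of the 21 members that rose in cold mutants and have a promoter entry, 7 held the ETS letters, as did 17 of the other 46. For YY1 the counts were 5 of 21 and 3 of 46, and the median change in cold mutants was 0.82 for the 8 members with the letters and 0.42 for those without. Mrps27, Mrpl37 and Mrps18a, whose YY1 windows are printed above, are among the 5, and Mrpl36, with the same letters on the opposite strand, is among the 3. In cold controls the medians were 0.29 with the YY1 letters and 0.36 without. NRF1 letters were in 3 of the 21 and 4 of the 46, and ERR letters in 1 and 3. Median changes in cold mutants with and without the letters were 0.51 and 0.44 for NRF1 and 0.30 and 0.51 for ERR. They were 0.55 and 0.42 for ETS. None of these splits was tested.

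Many members start beside another gene: 36 have a gene on the opposite strand starting within 1000 bases, and 34 have such a partner among the tested genes. The 32 partners that are no members had medians of 0.06 in cold controls (3 higher, 1 lower) and 0.18 in cold mutants (8 higher, 1 lower), against 0.39 and 0.51 for the 34 members beside them. The shares called higher over all tested genes were 4.31% and 10.0%. Mrps27 and its partner Ptcd2, another pentatricopeptide repeat gene, both rose in controls (0.83 and 0.69, edgeR adjusted p = 0.0142 and 0.0178). Mrpl46 and Mrps11, which are partners of each other, changed by 0.81 ± 0.19 and 0.66 ± 0.29, and the second did not pass (edgeR adjusted p = 0.199). Beside Mrps12, which did not pass, Sars2, the mitochondrial seryl-tRNA synthetase gene, rose by 1.06 ± 0.16 in controls (SE, edgeR adjusted p = 0.00404). Mrpl54 rose and its partner Apba3 changed by 0.09 ± 0.13.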

How the data were processed

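The authors deposited a table of raw counts per gene, 1 column per library, and per the submitters' processing notes the tools were STAR and featureCounts and the build mm9. The sources used here give no versions, annotation or strand setting. Libraries came from total RNA with a NEBNext Ultra kit, per the labels' protocols. The counts were fitted in edgeR 4.0.16 (R 4.3.3) on all 12 libraries with 1 coefficient per group: filterByExpr (minimum count 10, total 15), TMM factors, robust quasi-likelihood F-test in legacy mode, two-sided p adjusted by Benjamini-Hochberg over 15265 genes, called below 0.05. SE is that implied by F. The fit was also run on simulated counts with the same spread for every gene and no outlying library. That run does not speak for libraries that stand apart, such as the third mutant cold library. Depth limits precision little here, since 3 counts are 0.0764 to 0.114 CPM, and this covers counting error only. Alternatives were RLE factors, DESeq2 1.42.0, voom with quality weights (limma 3.58.1), no filter, a fit to only the groups compared, a fit without robust estimation, the replicate number as block, each library left out in turn and, added after the data were seen, 2 sets without muscle-rich libraries.

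Members, lists and the naming rule were chosen with earlier results of these data known. The rule names called members (values for up to 12 per comparison), the 2 highest and 2 lowest changes per comparison, the highest and lowest levels per kilobase, 12 members of known role and members overlapping other genes. Lengths, overlaps and starts come from GENCODE M21 (GRCm38), another build than the counts, so mm9 coordinates are not given. Same-numbered libraries deviated from their group means with correlations of 0.149, 0.733 and 0.494 between the room temperature groups. Between the 2 control groups they were 0.134, 0.657 and 0.471, so all 6 passed 0.1. They were -0.0116, 0.214 and 0.499 between the cold groups and 0.0613, 0.159 and 0.584 between the mutant groups, so not all passed 0.1 there. The main fit paired libraries in no comparison, and the replicate number entered only in the alternative with a block. No label ties a number to a litter or day. Replicates differed by a chi-square per degree of freedom of 38.2 to 234, far above sampling noise. The result for 1 synthetase gene is not reported here.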

Additional observations from a re-analysis of the deposited data

How the results depend on the processing

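Members called changed by more than 1.5 times under many settings. For mutant against control at room temperature (1 called), DESeq2 gave 5, voom 27 and no filter 0. Of all genes they called 11.3%, 18.6% and 4.35%, against 6.24% in the main fit. Both sets without the 4 muscle-rich libraries, the second also without the third mutant cold library, leave 1 control at room temperature. The median was -0.14 in each. Leaving out 1 library gave 0 to 18, with 2.54% to 9.75% of all genes called. In the cold (0 called), voom gave 2, higher in mutants, where it called 7.33% of all genes. The median there ranged from -0.3208 to 0.0423 leaving out 1 library. It was 0.0064 without the muscle-rich libraries and the third mutant cold library. For cold in controls (10 called), DESeq2 gave 16, voom 24, only the groups compared 17, and the 2 sets without muscle-rich libraries 0 and 25, with 0 to 21 leaving out 1 library. Of all genes, DESeq2, voom and the fit to only the groups compared called 7.31%, 12.6% and 5.0% higher, against 4.31% in the main fit. Leaving out 1 library, 1.44% to 7.27% of all genes were called higher. Both sets without muscle-rich libraries leave 1 control at room temperature, so their counts are not weighed here. The median in controls was 0.54 in each. For cold in mutants (27 called, all higher), voom gave 61, only the groups compared 12, and the 2 sets without muscle-rich libraries 6 and 54. Of all genes they called 17.5%, 6.54%, 4.72% and 11.5% higher, against 10.0% in the main fit. Leaving out 1 library gave 12 to 58, with 5.89% to 13.0% of all genes called higher. For the interaction (0 called), DESeq2 gave 2 and voom 13, where they called 3.31% and 7.34% of all genes. The median of the interaction was -0.0287 without the muscle-rich libraries and ranged from -0.0278 to 0.3388 leaving out 1 library. The cause of these shifts was not tested. With the replicate block, members called were 1, 0, 10, 28 and 0 in the same order, so the fit with the block moved no count by over 1.5 times. Over all genes it called 5.72%, 0.819%, 6.64%, 17.5% and 0.223%. In controls 9 of the 10 members were kept (Mrpl54 was lost, edgeR adjusted p = 0.0519). Both sets without muscle-rich libraries were chosen after the data were seen. For single members in the comparisons where the main fit called them, 589 of 798 reruns kept direction and call and 209 kept direction only. Each member had at least 365 counts in every library.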
